A study of Mus musculus with 1790 samples.

Results

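The receptors described here were 9 genes chosen by name, the relaxin receptor Rxfp1, the neuropeptide Y (NPY) receptors Npy1r, Npy2r and Npy5r, the vasoactive intestinal peptide (VIP) receptor Vipr1, the corticotropin-releasing hormone receptor Crhr1, the somatostatin receptors Sstr1 and Sstr2 and the cannabinoid receptor Cnr1, of 49915 gene names in all tables of the series. The series covered single mouse interneurons (INs) of the cortex and their embryonic precursors. Postnatal cells came from Hmx3-Cre::Htr3a-GFP mice that also carried a Cre-dependent tdTOM allele (R26R-tdTOM fl/fl), so all of them, whichever the sort, carried these 3 alleles, on a C57BL/6 background. Upper layers of somatosensory cortex were pooled over several brains per age and every sorted cell was GFP+. The Htr3a-GFP transgene labels INs of the preoptic area (POA) and the caudal ganglionic eminence (CGE), and tdTOM marks cells in which Hmx3-Cre had been active, taken as born in the POA. At P15 the files held 196 tdTOM+ and 194 tdTOM- cells, and at P30 301 and 280. Authors' subtype labels were given to 111, 113, 147 and 124 of these, and the others were labelled inconclusive. A further 47 tdTOM+/GFP+ cells were collected after patch-clamp recording (patch-seq), 20 labelled Dock5 (P15 to P25) and 27 labelled Lsp1 (P14 to P23). By the methods, patched cells came from all cortical layers and not from the upper layers alone. At E14.5 the collections were 418 tdTOM+/GFP+ POA cells of the same transgenic line, 352 POA cells of wild-type embryos labelled with FlashTag, a dye taken up by cells dividing at the ventricle, and captured shortly after, and droplet libraries of wild-type POA (2106 cells) and CGE (4115 cells). The FlashTag embryos are C57BL/6 in the labels and CD1 in the methods. For the droplet embryos the methods name C57BL/6 in the droplet protocol and CD1 in the section on mouse strains.

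All of these receptors are seven-helix proteins that act through G proteins. Npy1r, Npy2r, Npy5r, Sstr1, Sstr2 and Cnr1 couple to Gi/o, which lowers cyclic AMP, opens inward rectifier potassium channels and, at the axon terminal, closes calcium channels; Vipr1, Crhr1 and Rxfp1 couple mainly to Gs and raise cyclic AMP. Neurogliaform cells (NGCs) are INs that release GABA in bulk around their dense axon and usually express Npy, whereas Vip INs often inhibit other INs and Sncg INs include the cholecystokinin basket cells, known for dense Cnr1 at their terminals.

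Rows for all 9 receptors were present in the P15, P30 and patch-seq tables. At E14.5, 7 had a row in the tdTOM+/GFP+ table (Rxfp1 and Vipr1 did not), 3 in the FlashTag table (Sstr1, Sstr2 and Cnr1) and 8 in each droplet table. The genes lie on chromosomes 3 (Rxfp1, Npy2r), 4 (Cnr1), 8 (Npy5r, Npy1r), 9 (Vipr1), 11 (Crhr1, Sstr2) and 12 (Sstr1) of GRCm38. Npy5r (chr8:66679965-66688128, minus strand) and Npy1r (chr8:66697192-66706792, plus strand) are neighbours 9063 bases apart that are read away from each other.

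Promoter windows, 250 bases before to 50 after an annotated start (RefSeq, GRCm38.p6), matched 7 of the 9 genes with 9 windows. The windows of the 3 receptors that were lower in NGCs than in other INs at both ages are shown, with the window nearest the annotated start of the gene for Cnr1, followed by Sstr2, whose window held a cyclic AMP response element. Capitals mark matches to the motifs searched on both strands. The windows were Npy1r at chr8:66697172-66697471 (plus strand), Npy2r at chr3:82548036-82548335 (minus strand), Cnr1 at chr4:33924394-33924693 (plus strand) and Sstr2 at chr11:113619077-113619376 (plus strand).
Npy1r: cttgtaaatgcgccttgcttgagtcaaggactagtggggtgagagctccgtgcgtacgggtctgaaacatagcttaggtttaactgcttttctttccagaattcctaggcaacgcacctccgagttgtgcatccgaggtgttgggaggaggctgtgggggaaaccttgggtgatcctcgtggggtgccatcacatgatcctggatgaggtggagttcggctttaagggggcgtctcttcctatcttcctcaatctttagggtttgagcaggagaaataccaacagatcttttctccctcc
Npy2r: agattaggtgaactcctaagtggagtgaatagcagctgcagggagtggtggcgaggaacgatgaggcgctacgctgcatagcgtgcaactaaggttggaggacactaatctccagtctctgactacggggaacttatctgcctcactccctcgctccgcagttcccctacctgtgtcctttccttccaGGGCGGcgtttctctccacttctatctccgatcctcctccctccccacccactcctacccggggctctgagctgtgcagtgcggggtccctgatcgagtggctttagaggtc
Cnr1: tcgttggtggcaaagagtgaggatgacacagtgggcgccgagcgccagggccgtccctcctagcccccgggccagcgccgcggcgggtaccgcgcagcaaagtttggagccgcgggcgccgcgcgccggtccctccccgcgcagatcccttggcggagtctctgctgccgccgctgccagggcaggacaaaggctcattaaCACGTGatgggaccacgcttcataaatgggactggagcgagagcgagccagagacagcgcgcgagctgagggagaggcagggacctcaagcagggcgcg
Sstr2: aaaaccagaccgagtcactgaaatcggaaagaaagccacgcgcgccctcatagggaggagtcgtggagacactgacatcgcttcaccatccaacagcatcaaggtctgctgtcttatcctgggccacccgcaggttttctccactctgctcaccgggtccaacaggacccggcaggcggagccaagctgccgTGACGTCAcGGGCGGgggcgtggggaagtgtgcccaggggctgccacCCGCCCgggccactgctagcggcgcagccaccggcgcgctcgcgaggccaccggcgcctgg

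These windows differed in base composition. G and C made up 51.7% of the Npy1r window, 57.7% of that of Npy2r, 69.0% of that of Cnr1 and 66.3% of that of Sstr2, against a median of 52.7% over 32851 promoter windows of the same length (quartiles 45.7 and 61.7%). The Cnr1 window held 33 CpG dinucleotides and that of Npy1r 10. The 5 motifs searched were the E-box CACGTG (in 2 of the 9 windows and 7.15% of all windows), the cyclic AMP response element TGACGTCA (1 window, 1.79%), the GC box GGGCGG (5 windows, 35.7%), TATAAA (no window, 13.6%) and CCAAT (2 windows, 37.4%). Npy1r held none of them, Npy2r a GC box, the Cnr1 window shown an E-box, and Sstr2 a response element and a GC box. A match describes the letters of the window only.

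Counts per cell over the gene rows ran from 23365 to 991458 at P15 and from 18412 to 923652 at P30, from 33826 to 15968484 in patch-seq, from 100168 to 939213 in the E14.5 chip collections and from 2515 to 65782 in the droplet libraries. Levels are CPM, for which counts of a gene were added up across all cells in the group and scaled by the total counts of the group, with exact Poisson 95% intervals that cover counting error only. No label tied a cell to an animal, so each group stood as 1 sample, no difference was tested, and the spread given is over cells. Labels had been assigned by the authors from the expression values themselves, so subtype and expression were not independent. The P15 and P30 tables shared 11979 of 17465 gene rows each, so CPM at the 2 ages stand side by side and were not compared. Markers of other cell types were low: glutamatergic markers summed to at most 1.95 CPM at P15 and 5.88 CPM at P30 in any class, vascular markers to at most 1.49, oligodendrocyte markers to 42.9 and P15 microglial markers to 23.6. Astrocyte markers at P15 summed to at most 21.1 CPM and markers of medial ganglionic eminence INs to 9.37. These lists were partial: some glutamatergic markers had no row at each age, and no astrocyte or microglial marker had a row at P30. The gene Lsp1 itself did not separate the classes (11.4 CPM in Dock5 and 9.11 in Lsp1 cells at P15, 11.5 and 11.8 at P30), while Dock5 was at 90.4 and 35.4 CPM, then 41.7 and 7.52.

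Labelled cells were placed in 5 classes, both sorts together: Dock5 (40 cells at P15, 76 at P30), Lsp1 (53, 63), other Lamp5 subtypes (30, 40), Vip subtypes (87, 62) and Sncg with Serpinf1 subtypes (14, 30). Each receptor had its own order of classes. Rxfp1 was highest in the other Lamp5 cells, Npy1r, Npy5r and Crhr1 in Vip cells, Npy2r and Cnr1 in Sncg and Serpinf1 cells, and Sstr1 in Dock5 cells, at both ages. For Vipr1 and Sstr2 the highest class differed between ages. The Rxfp1 level of other Lamp5 cells was only 1.11 times that of Sncg and Serpinf1 cells at P15 and 1.21 times at P30. By the share of cells with a count at equal depth, Sncg and Serpinf1 cells were highest for Rxfp1 at both ages. They were also highest at P15 when Vip, Sncg and Serpinf1 cells were tdTOM- only and Dock5 cells tdTOM+ only. Interquartile ranges over cells did not overlap for 1 of 36 neighbouring pairs of classes at each age and overlapped for the rest. The share of such pairs over all genes was not computed. For Npy5r, Vipr1 and Crhr1 both quartiles were 0 in every class, so their ranges overlapped whatever the levels. The same held for Sstr1 at P30. The lower quartile was 0 in every class for Sstr1 at P15, Sstr2 at both ages and Npy2r at P30. Overlap was therefore fixed there as well. For the remaining orders, the ranges of most neighbours overlapped, which describes the spread over cells only. The pairs without overlap, both for Cnr1, were other Lamp5 above Dock5 cells at P15 and Sncg and Serpinf1 above other Lamp5 cells at P30.

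**Figure D1:**
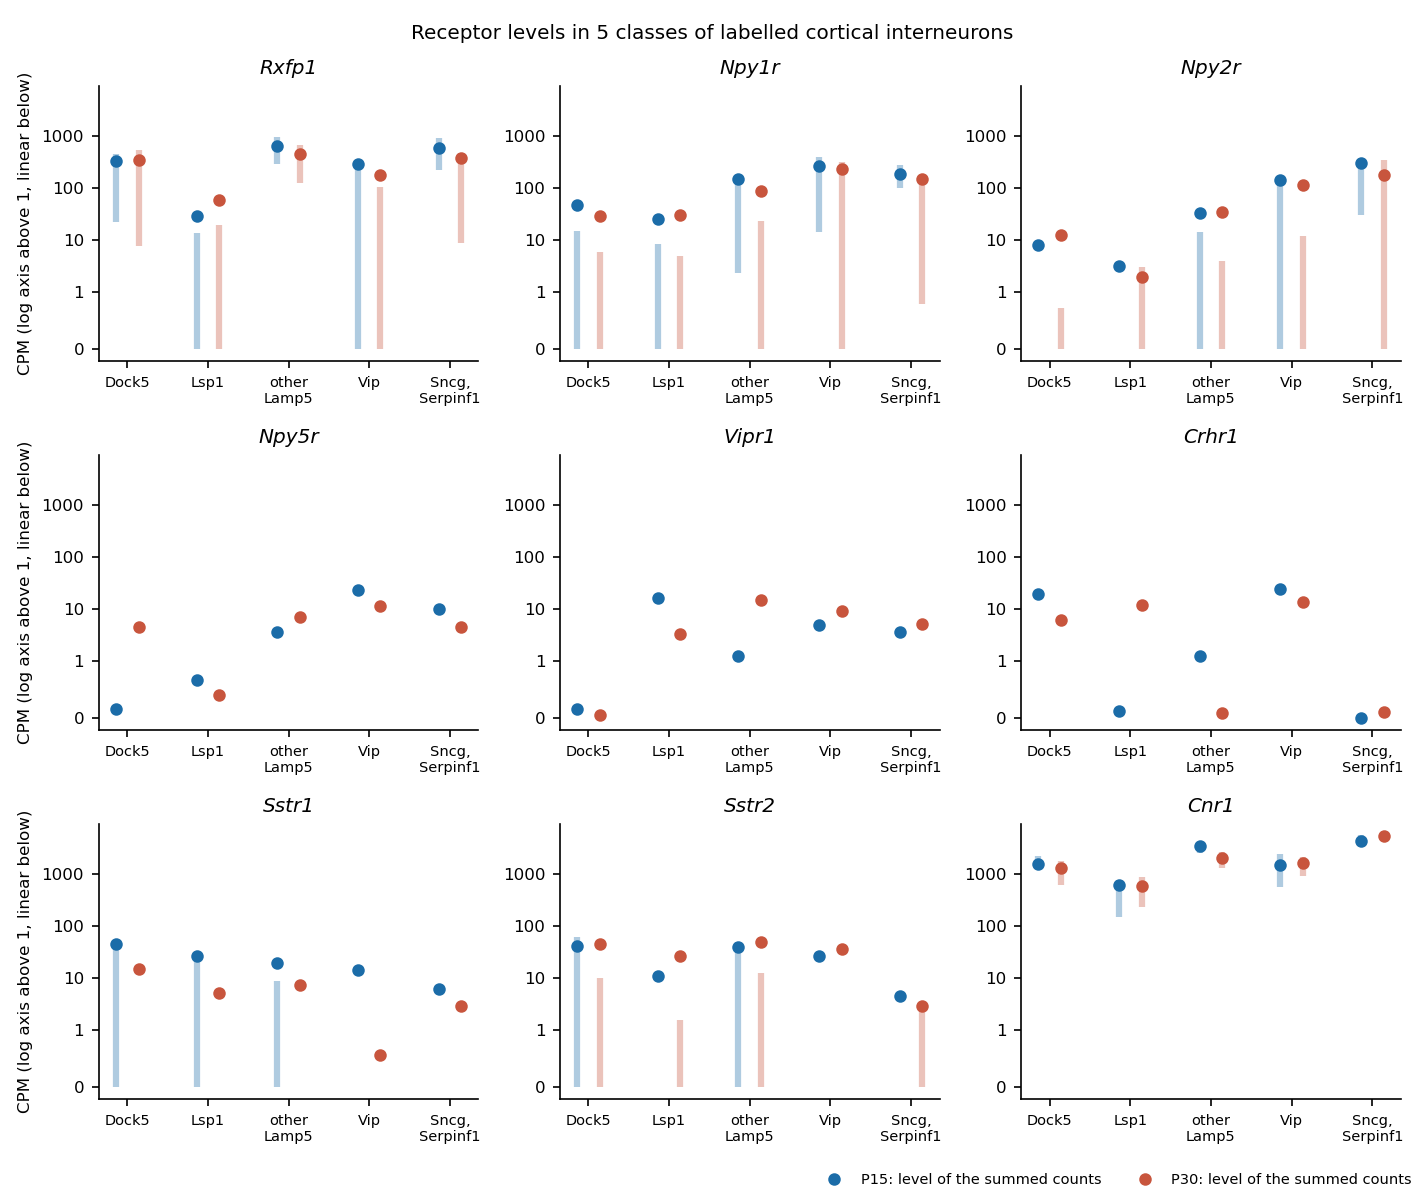
Level of each receptor (CPM, log axis above 1 and linear below) in the 5 classes of labelled cells at P15 and P30. Points are CPM of the summed counts and pale bars the interquartile range over cells; Cnr1 is at 584 CPM or more in every class, whereas Npy5r, Vipr1 and Crhr1 reach at most 24.3 CPM.

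Rxfp1 encodes the receptor of relaxin peptides. At P15 its level was 638 CPM (622 to 653) in other Lamp5 cells, where single cells ran from 0 through a median of 629 to 1813 CPM, and 573 CPM in Sncg and Serpinf1 cells, where no cell was below 140 CPM. In Dock5 cells the level was 324 CPM (314 to 334), with single cells from 1.70 through 103 to 1806. In Lsp1 cells it was 28.0 CPM (25.4 to 30.8), with single cells from 0 through 4.77 to 348. Lsp1 cells were thus low but overlapped Dock5 cells, and Dock5 cells spread over most of the range of the sort. Vip cells had a level of 280 CPM with a median of only 13.7, since 29 of 87 cells were at 100 CPM or more and 64 held any count. At P30 the order of classes was other Lamp5 (446 CPM), Sncg and Serpinf1 (368), Dock5 (342), Vip (173) and Lsp1 (58.0). Cells at 100 CPM or more were 42 of 76 Dock5 and 7 of 63 Lsp1 cells at P30, after 20 of 40 and 4 of 53 at P15.

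Npy1r, the postsynaptic type of NPY receptor, was highest in Vip cells, at 259 CPM (254 to 266) at P15 and 230 CPM (223 to 238) at P30. Single Vip cells at P15 ran from 0 through 158 to 1416 CPM and 49 of 87 were at 100 CPM or more, against 4 of 40 Dock5 and 4 of 53 Lsp1 cells. The NGC classes were lowest, at 46.4 CPM in Dock5 and 25.2 in Lsp1 cells at P15 and at 28.0 and 30.4 at P30.

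Npy2r, which sits largely on axon terminals, was highest in Sncg and Serpinf1 cells. Its level there was 298 CPM (284 to 312) at P15, with single cells from 0 through 236 to 987, and 175 CPM (166 to 183) at P30, with single cells from 0 through 4.12 to 1169. Vip cells followed at 139 and 114 CPM. Dock5 cells were at 7.75 and 12.3 CPM and Lsp1 cells at 3.15 and 1.88, and cells at 100 CPM or more numbered 2 of 40 and 3 of 76 Dock5 cells and 1 of 53 and 0 of 63 Lsp1 cells. With each cell thinned to 141400 counts at P15, 64 of 73 Vip cells held an Npy1r count, 35 an Npy2r count and 30 both, and 8 of 14 Sncg and Serpinf1 cells held both; 0 of 36 Dock5 and 5 of 49 Lsp1 cells did. Among Vip cells Npy2r was counted in 46.9% of those with and 55.6% of those without an Npy1r count, and among Sncg and Serpinf1 cells in 8 of 11 and 3 of 3.

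Npy5r, a receptor that often shares cells with Npy1r, was sparse. Its level was highest in Vip cells, 22.9 CPM (21.1 to 24.7) at P15 from 19 of 87 cells and 11.0 CPM (9.35 to 12.9) at P30 from 9 of 62. Dock5 cells had 2 counts in 1 cell at P15, and all 84 counts at P30 also came from 1 cell.

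Vipr1 and Crhr1 rested on single cells in most classes. Vipr1 was at 16.1 CPM in Lsp1 cells at P15, but 97.5% of these counts came from 1 of 53 cells. At P30 its highest class was other Lamp5, with a count in 5 of 40 cells. Crhr1 was at 24.3 CPM (22.5 to 26.2) in Vip cells at P15, from 11 of 87 cells, and at 13.4 CPM (11.6 to 15.5) at P30, from 7 of 62. The Dock5 level of 19.3 CPM at P15 came to 96.6% from 1 cell, and the Lsp1 level of 11.7 CPM at P30 came wholly from 1 cell. No Crhr1 count was found in 14 Sncg and Serpinf1 cells at P15, and at P30 there was 1 count in 30 cells.

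The somatostatin receptors were not lowest in NGCs. Sstr1 was highest in Dock5 cells, at 44.8 CPM (41.1 to 48.7) at P15 with a count in 18 of 40 cells and at 14.6 CPM (12.9 to 16.4) at P30 with a count in 14 of 76. Vip cells were at 13.8 and 0.569 CPM, and Sncg and Serpinf1 cells at 6.11 and 2.85. Sstr2 was at 40.1 CPM in Dock5 and 39.0 in other Lamp5 cells at P15, with a count in 20 of 40 and 20 of 30 cells, and at 44.6 and 49.2 CPM at P30. Its Vip level of 26.4 CPM at P15 came to 63.9% from 1 cell, and Sncg and Serpinf1 cells were lowest at 4.41 and 2.85 CPM.

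Cnr1, the main cannabinoid receptor of the brain, was found in nearly every cell. Its level was 4209 CPM (4157 to 4262) at P15 and 5307 CPM (5260 to 5355) at P30 in Sncg and Serpinf1 cells, with single cells from 637 through 4379 to 13565 and from 1597 through 5110 to 10189. Other Lamp5 cells were at 3347 and 2035 CPM, Dock5 cells at 1550 and 1270, Vip cells at 1437 and 1611, and Lsp1 cells lowest at 606 and 584 CPM. At P15 the Lsp1 cells ran from 0 through 306 to 3292 CPM and Dock5 cells from 353 through 1620 to 4045. Apart from 1 Lsp1 cell at P15, every labelled cell held a Cnr1 count.

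Between 1 and 7 of the 9 receptors were detected per cell after thinning to 141400 counts at P15 or 145300 at P30. The class medians were 3 or 4 at both ages.

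Subtypes with at least 4 cells at both ages numbered 15, and they showed differences within classes. Rxfp1 was highest in Lamp5 Fam19a1 Tmem182 cells, at 945 CPM (909 to 981) in 8 cells at P15 and 656 CPM (626 to 687) in 9 cells at P30, and every one of these cells held a count. Lamp5 Ntn1 Npy2r cells (828 and 523 CPM) and Vip Pygm C1ql1 cells (867 and 579 CPM) followed, whereas Vip Lect1 Oxtr cells were at 7.95 and 44.4 CPM. The Vip class thus held subtypes near the top of the Rxfp1 range and at its bottom. In the subtype named Vip Rspo4 Rxfp1 Chat, present as 2 cells at P15, the level was 1597 CPM (1309 and 2703 CPM in the cells).

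Npy1r was highest in Vip Pygm C1ql1 cells at both ages (464 and 474 CPM). Npy2r was highest at P15 in Vip Ptprt Pkp2 cells, at 587 CPM (564 to 610) from 17 of 18 cells, and at P30 in Sncg Gpr50 cells, at 329 CPM (307 to 351) from 6 of 8 cells. Vip Ptprt Pkp2 cells were at 107 CPM at P30 and Sncg Gpr50 cells at 441 CPM at P15. The Lamp5 Ntn1 Npy2r subtype, which carries the receptor in its name, was at 42.1 CPM at P15 (6 of 12 cells) and 59.9 CPM at P30 (8 of 17 cells), below both. Vip Pygm C1ql1 cells were at 0.908 CPM at P15 and 274 CPM at P30, where 49.6% of the counts came from 1 of 8 cells.

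Crhr1 was highest in Vip Lect1 Oxtr cells at both ages, at 83.8 CPM from 2 of 7 cells and 83.6 CPM from 5 of 10 cells. Sstr2 was highest in Vip Chat Htr1f cells (66.5 and 199 CPM), but 95.8% of the counts at P15 and all at P30 came from 1 cell. Cnr1 was highest in Sncg Vip Itih5 cells (5220 and 6921 CPM). It was lowest in Vip Ptprt Pkp2 cells at P15 (426 CPM) and in Lsp1 cells at P30 (584 CPM). Over the 15 subtypes, Pearson's r between the levels at the 2 ages, on log2(CPM + 10), was 0.84 for Rxfp1, 0.82 for Cnr1, 0.74 for Vipr1, 0.66 for Sstr2, 0.65 for Crhr1, 0.57 for Sstr1, 0.44 for Npy2r, 0.39 for Npy1r and -0.38 for Npy5r. The subtypes share their labelling, libraries and depth within an age, so these values are descriptions. The r of Vipr1 rests on levels of at most 16.1 CPM at P15 and 27.3 CPM at P30. Of the counts behind these 2 levels, 97.5% and all came from 1 cell.

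**Figure D2:**
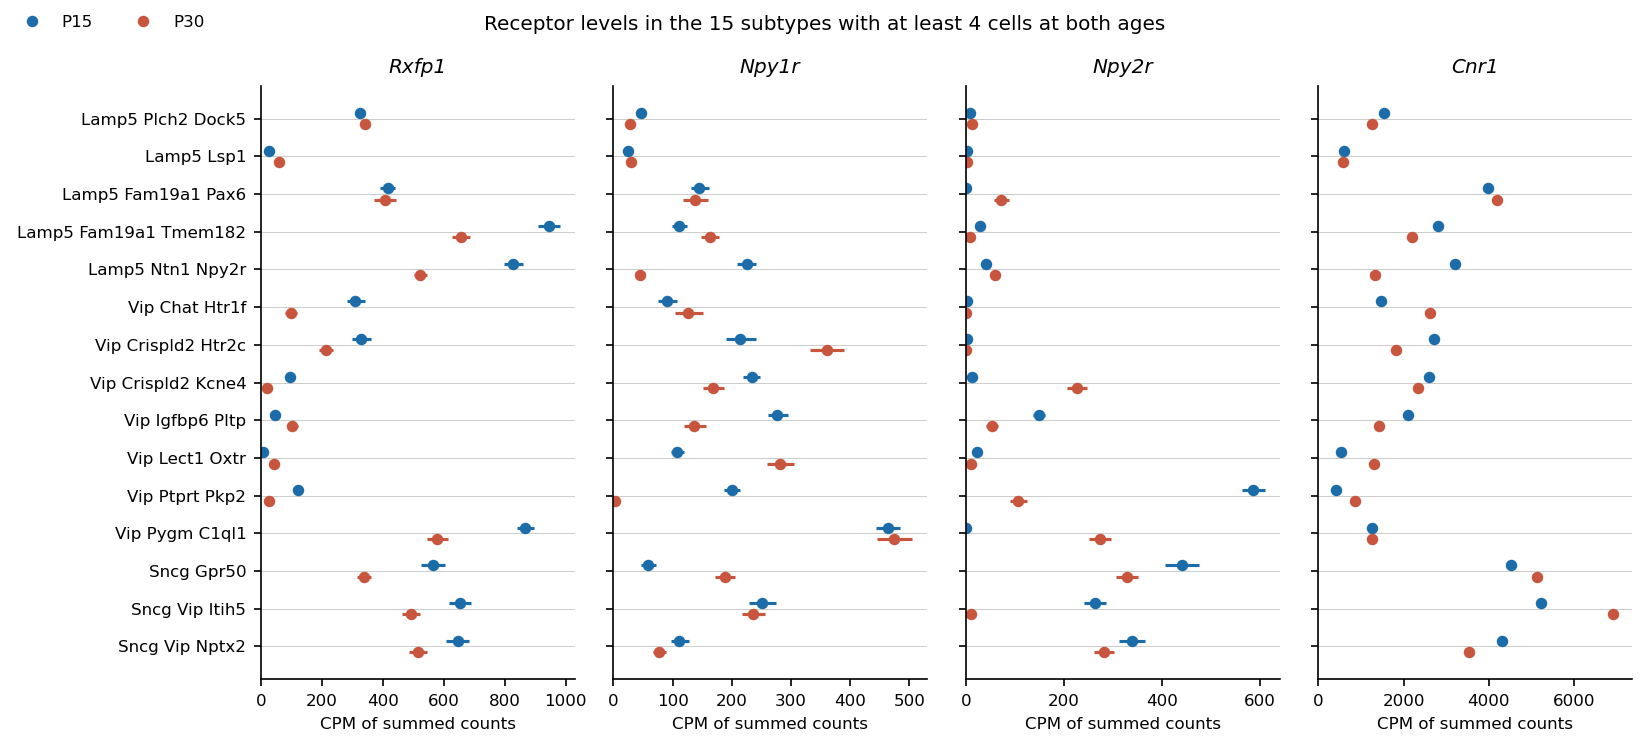
CPM of the summed counts of Rxfp1, Npy1r, Npy2r and Cnr1 in the 15 subtypes with at least 4 cells at both ages, with exact Poisson 95% intervals as bars. At P15 Rxfp1 ranges from 7.95 CPM in Vip Lect1 Oxtr to 945 CPM in Lamp5 Fam19a1 Tmem182, and Cnr1 is highest in Sncg Vip Itih5.

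The genes whose subtype profile was most like that of a receptor at both ages were picked from 9360 genes by the smaller of the r values at P15 and P30 over the 15 subtypes. For Rxfp1 they were Klhl13, a cullin ligase adaptor (0.77 and 0.80), and Necab1, a calcium-binding protein (0.68 and 0.77). For Cnr1 they were Adarb2, a marker of CGE-derived INs (0.82 and 0.85), and Rgs12, a regulator of G protein signalling (0.82 and 0.77). Npy1r had Ntrk3, the neurotrophin-3 receptor (0.61 and 0.87), and Fndc5 (0.60 and 0.68); Npy2r had Fgf12 (0.65 and 0.62). The sparse receptors gave Kcnj2 and Cda for Npy5r, Cyp1b1 and Aak1 for Vipr1, Col7a1 and Gtf2e1 for Crhr1, Arpc3 and Gp1bb for Sstr1 and Hps5 and Utrn for Sstr2, with r from 0.58 to 0.86. As the largest values among many genes, these describe likeness only.

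NGCs were set against other INs by comparing tdTOM+ cells labelled Dock5 or Lsp1 (69 cells at P15, 111 at P30) with tdTOM- cells of all other subtypes (89 and 96). Npy1r, Npy2r and Cnr1 were lower in NGCs at both ages by more than 2-fold, the size called here, which is an absolute log2 fold of at least 1 after adding 10 CPM for a gene whose higher group reached 10 CPM. At P15, all 9 receptors reached 10 CPM in either group and 5 were past 2-fold, all lower in NGCs, where 13.8% of 9081 genes that reached 10 CPM were past it in either direction and 7.83% were lower. At P30, 7 reached 10 CPM and 3 were past 2-fold, again lower, where 14.3% of 10323 genes were past it and 7.43% were lower. The median log2 fold of the receptors that reached 10 CPM was -1.17 at P15 and -0.23 at P30, and that of all genes -0.03 and 0.03.

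Npy1r was at 40.4 CPM (37.7 to 43.3) in NGCs and 229 CPM (224 to 235) in the other INs at P15. The NGCs ran from 0 through a median of 0 to 361 CPM, with a count in 34 of 69 cells, and the other INs from 0 through 126 to 1416 CPM, with a count in 74 of 89. The groups overlapped, yet most NGCs were at the low end. At P30 the levels were 30.3 and 177 CPM, with a count in 48 of 111 and 66 of 96 cells. The log2 folds were -2.25 and -2.21.

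Npy2r was at 5.14 CPM (4.20 to 6.22) and 138 CPM (134 to 143) at P15, with a count in 15 of 69 NGCs and 47 of 89 other INs. A single cell gave 51.9% of the NGC counts. At P30 it was at 8.62 and 125 CPM, with a count in 29 of 111 and 39 of 96 cells. The log2 folds were -3.29 and -2.86, the lowest of the 9 receptors at each age.

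Cnr1 was at 1080 CPM (1066 to 1095) in NGCs and 2436 CPM (2417 to 2455) in the other INs at P15. Single NGCs ran from 20.5 through 1126 to 4045 CPM and the other INs from 14.7 through 2269 to 13565. At P30 the levels were 1069 and 3137 CPM, with medians of 916 and 2261. All cells of both groups held a count, the interquartile ranges overlapped at both ages, and the log2 folds were -1.17 and -1.54. Which INs stood on the other side mattered here: against tdTOM- Vip cells alone the Cnr1 log2 folds came to -0.67 and -0.74, short of 2-fold, while the Npy1r and Npy2r folds stayed past it.

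Rxfp1 was past 2-fold at P15 only, at 153 CPM in NGCs and 382 CPM in the other INs (log2 fold -1.27, medians 19.8 and 74.0), and was at 252 and 298 CPM at P30 (-0.23). Against tdTOM- Vip cells alone its P15 log2 fold came to -0.69. Npy5r was lower at P15 (0.593 and 15.6 CPM, log2 fold -1.27, 6 and 12 cells) and at 3.03 and 8.04 CPM at P30. The receptors with positive folds at both ages were short of 2-fold: Sstr1 was at 35.6 and 15.3 CPM at P15 (0.85) and 11.2 and 3.84 at P30 (0.62). Sstr2 (-0.23 and 0.54), Vipr1 (0.66 and -0.64) and Crhr1 (-0.61 and 0.25) had opposite signs at the 2 ages.

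**Figure D3:**
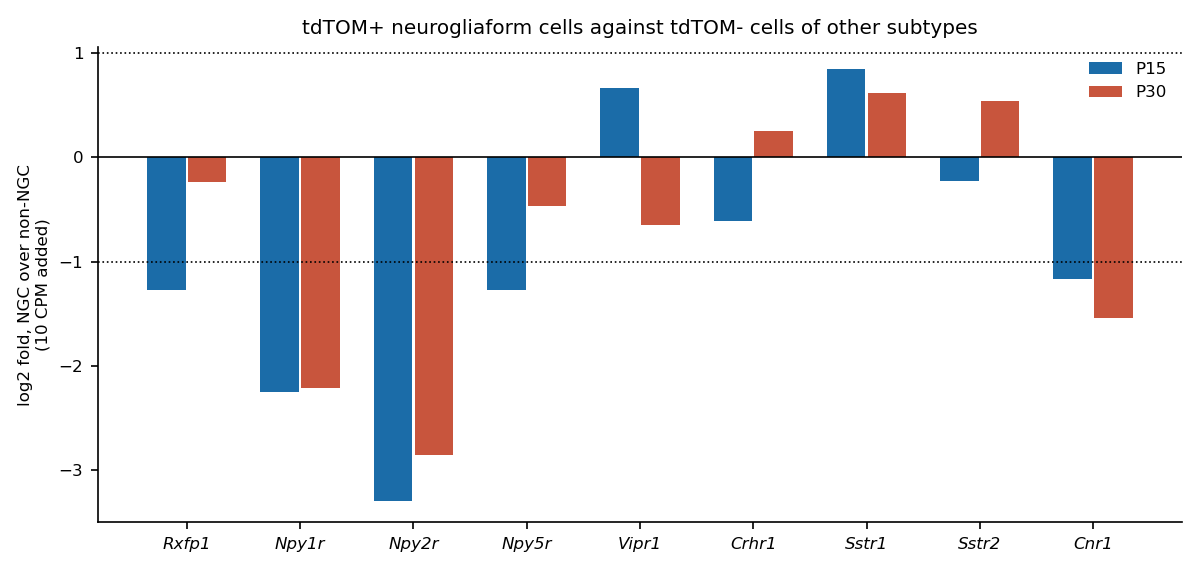
Log2 fold of each receptor, tdTOM+ NGCs over tdTOM- cells of other subtypes, after adding 10 CPM, with dotted lines at 2-fold. Bars of Npy1r, Npy2r and Cnr1 lie below the lower line at both ages, and those of Rxfp1 and Npy5r at P15 only.

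The ligand genes were read beside their receptors. Of 13 ligand genes, 12 had a row at P15 and 6 at P30, and 4 reached 10 CPM in either group at each age. Npy was higher in NGCs at both ages (7155 and 800 CPM at P15, 4077 and 1410 at P30), opposite in direction to Npy1r and Npy2r. Vip (271 and 6340 CPM, then 381 and 3962) and Crh (47.1 and 1047, then 38.7 and 590) were lower, and Cort, which encodes the somatostatin-like peptide cortistatin, was higher at P30 (34.4 and 6.26 CPM). Of 13 related receptors, 12 had a row at P15, but only 1 reached 10 CPM and could be called, and it was short of 2-fold. At P30, 5 had a row and 2 reached 10 CPM. Of these 1 was past 2-fold, Sstr3, lower in NGCs, whose counts came almost wholly from 1 cell. Of 7 endocannabinoid genes, Mgll (625 and 266 CPM) and Abhd6 (122 and 47.8), both hydrolases of 2-arachidonoylglycerol, were higher at P15, and Daglb, a synthase of the same lipid, was lower at P30 (12.1 and 34.7). Mgll was at 333 and 212 CPM and Abhd6 at 70.3 and 79.5 CPM at P30. Of 9 binding protein and transducer genes, 3 were past 2-fold at P15 (Kcnj9 higher, Gnai1 and Kcnj6 lower) and 1 at P30 (Kcnj3 lower).

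The 2 NGC subtypes were compared within the tdTOM+ sort and in the patch-seq cells, and the sorted cells are the NGCs of the comparison above. Rxfp1 was higher in Dock5 than in Lsp1 cells in all 3 datasets. At P15 (36 and 33 cells), 7 of the 9 receptors reached 10 CPM in either group and 5 of these were past 2-fold, where 19.3% of 8910 genes that reached it were past 2-fold and 9.66% were higher in Dock5 cells; Rxfp1, Cnr1, Sstr2 and Crhr1 were higher and Vipr1 lower. At P30 (76 and 35 cells) 7 reached 10 CPM and Rxfp1 alone was past 2-fold, where 19.4% of 10184 genes were past it and 10.7% were higher. In patch-seq (20 and 27 cells) 4 reached 10 CPM and Rxfp1 and Cnr1 were past 2-fold, where 18.3% of 9966 genes were past it and 7.63% were higher. The median log2 fold of the receptors that reached 10 CPM was 1.03, 0.75 and 1.32 in the 3 datasets, and that of all genes -0.01, 0.01 and 0.04. The patch-seq labels had been set by a classifier trained on postnatal cells of this study, so its cells are no independent check of the labels. The paper names Rxfp1 among the top genes of that classifier. By the methods, that classifier was trained on labelled P15 and P30 cells of this study with adult cells of another. Rxfp1 was thus picked in part from the sorted cells compared here. Its higher level in Dock5 cells is therefore not independent of the labels in any of the 3 datasets and is no replication.

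Rxfp1 at P15 was at 265 CPM (256 to 275) in Dock5 and 29.8 CPM (26.5 to 33.5) in Lsp1 cells, with a log2 fold of 2.79. Every Dock5 cell held a count (1.70 through 89.8 to 1574 CPM), as did 21 of 33 Lsp1 cells (0 through 5.71 to 324). The P30 levels were 342 CPM (334 to 351) and 75.9 CPM (70.5 to 81.5), with a log2 fold of 2.04 and medians of 156 and 5.71. In patch-seq it was at 104 CPM (97.3 to 111) and 5.23 CPM (4.63 to 5.88), a log2 fold of 2.91, with a count in 10 of 20 and 6 of 27 cells. In each dataset the lower group held some cells as high as the upper group's median, and the interquartile ranges overlapped.

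Cnr1 at P15 was at 1460 CPM (1437 to 1484) in Dock5 and 666 CPM (650 to 682) in Lsp1 cells, a log2 fold of 1.12. Dock5 cells ran from 353 through 1599 to 4045 CPM and Lsp1 cells from 20.5 through 316 to 3292, and the interquartile ranges did not overlap. The P30 levels were 1270 and 677 CPM, short of 2-fold (0.90), with overlapping ranges and medians of 1160 and 703. In patch-seq it was at 521 CPM (506 to 537) and 104 CPM (101 to 107), a log2 fold of 2.22, with single cells from 14.3 through 298 to 2053 and from 0 through 56.1 to 718 and again no overlap of the interquartile ranges. Depth differed between the patch-seq groups: the Lsp1 cells held 53198151 counts, 30.0% of them in 1 cell, and the Dock5 cells 8166271. Without the deepest cell of each group the log2 folds were 3.01 for Rxfp1 and 2.32 for Cnr1.

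**Figure D4:**
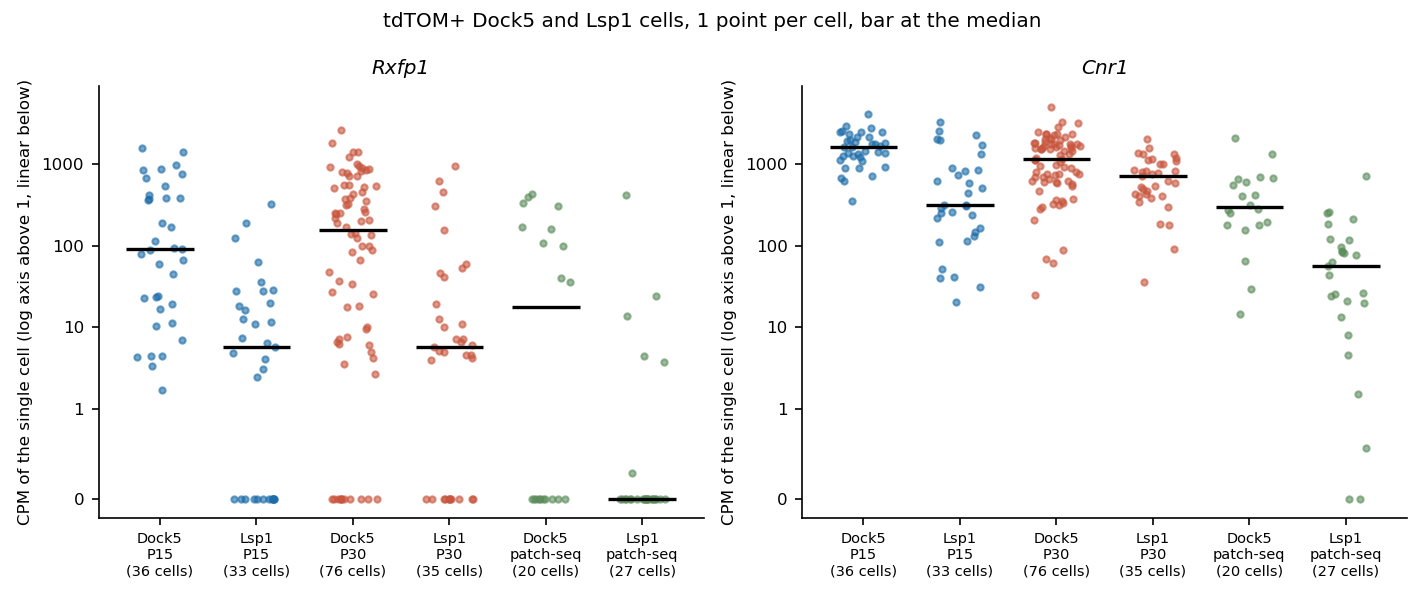
CPM of Rxfp1 and Cnr1 in each tdTOM+ Dock5 and Lsp1 cell at P15, at P30 and in patch-seq (log axis above 1, linear below), with bars at the medians. The median of Dock5 cells is the higher in all 6 pairs of groups, and points of the groups overlap in each.

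Sstr2 was at 43.8 CPM in Dock5 and 16.4 CPM in Lsp1 cells at P15 (log2 fold 1.03, a count in 18 of 36 and 10 of 33 cells), but at 44.6 and 41.5 CPM at P30 and 12.4 and 6.79 CPM in patch-seq. Crhr1 was at 22.4 CPM in Dock5 cells and listed at 0 in Lsp1 cells at P15, and 96.6% of its counts came from 1 cell. Vipr1 at P15 was at 0.0947 and 24.9 CPM, and 97.5% of the Lsp1 counts came from 1 cell. Npy1r, Npy2r, Npy5r and Sstr1 were not called in any of the 3 datasets, a call that depends on the 10 CPM added and the floor. At P15 Npy1r was at 53.5 and 26.1 CPM (log2 fold 0.81) and Sstr1 at 48.7 and 21.4 CPM (0.90). Npy2r (8.90 and 1.03 CPM) and Npy5r (0.189 and 1.03 CPM) did not reach 10 CPM there. Among the ligands, Npy was lower in Dock5 cells in all 3 datasets (4193 and 10384 CPM at P15, 2194 and 7748 at P30, 3769 and 8162 in patch-seq). Cort was lower at P30 (3.96 and 93.7 CPM). Of the endocannabinoid genes, Faah, the anandamide hydrolase, was lower at P15 (39.5 and 160 CPM) and was at 52.1 and 36.8 CPM at P30, and Daglb was higher in patch-seq (56.0 and 19.9 CPM).

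Among Lsp1 cells, the tdTOM- and tdTOM+ sorts were compared. The paper reads the tdTOM+ share of the Dock5 and Lsp1 subtypes as labelling efficiency. Absent tdTOM thus does not settle where an Lsp1 cell was born. Sstr2 was lower in tdTOM- than in tdTOM+ Lsp1 cells at both ages. At P15 (20 and 33 cells) 6 of the 9 receptors reached 10 CPM in either group and 2 of these were past 2-fold, where 23.7% of 8809 genes that reached it were. At P30 (28 and 35 cells) 5 reached 10 CPM and 2 were past 2-fold, where 30.4% of 10140 genes were. All called were lower in tdTOM- cells, but the share of all genes lower there was not computed. Counts this small describe single genes and not the receptors as a set. The tdTOM+ Lsp1 cells are those of the comparison with Dock5 cells. Sstr2 was at 0.952 CPM (0.309 to 2.22) and 16.4 CPM (14.0 to 19.2) at P15, with a count in 3 of 20 and 10 of 33 cells and a log2 fold of -1.27. The P30 levels were 3.90 CPM (2.59 to 5.64) and 41.5 CPM (37.6 to 45.7), with a count in 4 of 28 and 12 of 35 cells, a log2 fold of -1.89, and 53.2% of the tdTOM+ counts in 1 cell. At P15 it was short of 2-fold without the cell of each group with the most Sstr2 counts. The other called receptors, Vipr1 at P15 and Crhr1 at P30, were listed at 0 in tdTOM- cells, and 97.5% and all of their tdTOM+ counts came from 1 cell. Rxfp1 was at 24.6 and 29.8 CPM at P15 and at 33.6 and 75.9 CPM at P30 (log2 fold -0.98), and Cnr1 at 495 and 666, then 456 and 677 CPM. Cort was lower in tdTOM- cells at both ages (8.00 and 29.0, then 37.3 and 93.7 CPM).

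Levels were also taken per sort. Over all sorted cells, inconclusive ones included, Npy1r was at 115 CPM in tdTOM+ and 209 CPM in tdTOM- cells at P15 and at 55.6 and 126 CPM at P30, Npy2r at 52.0 and 105, then 27.7 and 76.1, and Cnr1 at 1677 and 2207, then 1323 and 2318. Rxfp1 was at 315 and 319 CPM at P15 and at 323 and 263 CPM at P30. Within Vip cells, Cnr1 was at 930 CPM in tdTOM+ and 1719 CPM in tdTOM- cells at P15 and at 1130 and 1786 CPM at P30. The sorts held different mixes of Vip subtypes, for which these levels were not adjusted. At P30, Vip Ptprt Pkp2 had 4 tdTOM+ and 3 tdTOM- cells, whereas all 8 Vip Crispld2 Kcne4 cells were tdTOM-. Dock5 cells were found in the tdTOM- sort only at P15, as 4 cells with Rxfp1 at 691 CPM and Cnr1 at 2107 CPM.

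At E14.5 Cnr1 was the receptor counted in most cells of the POA collections, while in the CGE library Sstr2 was counted in 351 and Cnr1 in 325 of 4115 cells. Cells were called post-mitotic GABAergic-like or progenitor-like from marker sums. Of the tdTOM+/GFP+ POA cells 412 of 418 were called post-mitotic, and of the FlashTag cells 301 of 352 progenitor-like. The collections also differed in genotype and sort, and by the methods in strain, which cannot be told apart here. Of the 3 receptors with a row in both collections only Cnr1 reached 10 CPM and could be called, and none was past 2-fold, where 22.8% of 10438 genes that reached 10 CPM were. Cnr1 was at 63.8 CPM (62.6 to 65.1) in tdTOM+/GFP+ and 27.0 CPM (26.0 to 28.0) in FlashTag cells, with a count in 255 of 418 and 45 of 352 cells and a log2 fold of 0.996, just short of 2-fold. By call, Cnr1 was at 64.8 CPM in post-mitotic tdTOM+/GFP+ cells, 82.6 CPM in the 51 post-mitotic FlashTag cells and 17.2 CPM in progenitor-like FlashTag cells. Sstr2 was at 5.99 and 5.82 CPM in the 2 collections, with 50.8% of the FlashTag counts in 1 cell.

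Npy2r was at 13.5 CPM (12.9 to 14.1) in the tdTOM+/GFP+ cells, with a count in 38 of 418 cells, all of them post-mitotic, and a highest cell of 778 CPM. Crhr1 had a count in 5 cells, and Npy1r, Npy5r and Sstr1 in 1 cell each. Post-mitotic cells with and without an Hmx3 count were at 66.0 (126 cells) and 64.3 CPM (286 cells) for Cnr1 and at 18.2 and 11.7 CPM for Npy2r.

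In the droplet libraries, post-mitotic GABAergic-like cells numbered 1558 in POA and 2738 in CGE, and 12 barcodes occurred in both libraries. Of the 7 receptors with a row in both, 2 reached 10 CPM, Cnr1 and Sstr2. Cnr1 alone was past 2-fold, higher in POA, where 3.37% of 8932 genes that reached 10 CPM were past it. It was at 63.2 CPM (59.5 to 67.1) in POA and 23.1 CPM (20.9 to 25.5) in CGE, a log2 fold of 1.14. A Cnr1 count was found in 35.9% of POA and 10.2% of CGE post-mitotic cells, at median depths of 7571 and 5341 counts, and in 16.9% and 3.37% of progenitor-like cells, at 7595 and 7104. With each cell thinned to 3200 counts the shares were 15.8% (14.0 to 17.7) and 6.35% (5.40 to 7.42) in post-mitotic cells and 6.31% and 1.54% in progenitor-like cells (exact Clopper-Pearson intervals), leaving out 409 post-mitotic and 165 progenitor-like CGE cells that were shallower. In each library the post-mitotic share was above that of progenitor-like cells, and the POA progenitor-like share was close to the CGE post-mitotic one. In POA, Cnr1 was at 84.4 CPM (74.4 to 95.3) in 197 post-mitotic cells with an Hmx3 count and at 58.6 CPM (54.6 to 62.7) in 1361 without one, whose median depths were 10359 and 7265.

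Sstr2 had the opposite direction, at 8.68 CPM (7.33 to 10.2) in POA and 26.1 CPM (23.7 to 28.6) in CGE post-mitotic cells, short of 2-fold after adding 10 CPM (log2 fold -0.95). Thinned shares were 2.12% and 5.97% in post-mitotic and 1.11% and 2.13% in progenitor-like cells. The other receptors were between 0.176 and 2.63 CPM, and Rxfp1, with a row in CGE only, had 3 counts. Of the ligands, Npy (67.1 and 203 CPM) and Sst (52.5 and 392) were lower in POA and Adcyap1, the gene of the VIP-related peptide PACAP, was higher (14.2 and 0.351).

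**Figure D5:**
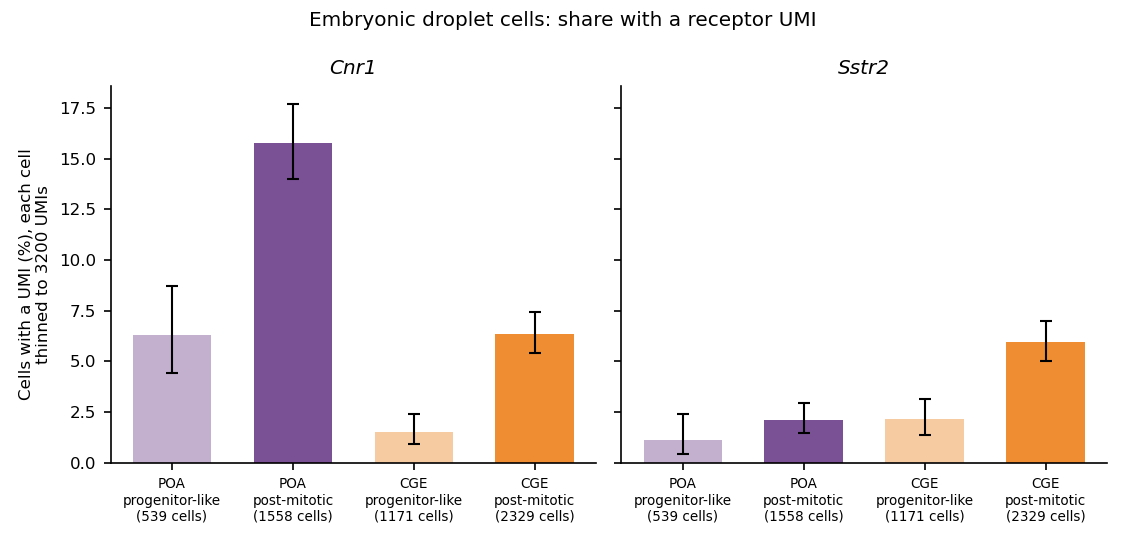
Share of E14.5 droplet cells with a Cnr1 or Sstr2 count after each cell was thinned to 3200 counts, by library and call, with exact Clopper-Pearson 95% intervals. Cnr1 is highest in POA post-mitotic cells (15.8%) and Sstr2 in CGE post-mitotic cells (5.97%).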

How the data were processed

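Single cells were captured on microfluidic chips after sorting, aspirated after recording, or run as droplets. Per the labels and methods, the authors mapped reads to mm10 with STAR, took UMI-tools where molecules were tagged, and used Cell Ranger for droplets. The deposited count tables hold whole reads or UMIs per gene and cell, left without low-quality cells. By the methods, the authors had removed non-GABAergic clusters from the droplet and E14.5 chip data and chip doublets seen on images. No doublet caller was run. Subtypes are the authors' labels. From these counts CPM of group sums, exact Poisson intervals, shares of cells with exact Clopper-Pearson intervals and log2 folds after adding 10 CPM were computed (scipy 1.17.1 and pandas 2.3.3 under Python 3.11.15, with numpy 2.4.6, and figures in matplotlib 3.10.9). Cells were thinned to the 10th percentile of the totals compared. The calculation was tested on simulated data. E14.5 cells were called post-mitotic or progenitor-like from marker sums, leaving ties out (9 POA and 41 CGE cells). Intervals and the limit of 3 counts for a count of 0 cover counting error only. Each group is 1 sample, so no p-value was computed.

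The members and lists were chosen with earlier results of these data known. All 9 receptors are named; a list gene is named when past 2-fold in the same direction at both ages or when a ligand or close relative of a receptor under discussion, and other list genes were named after their values were seen. The 2 most similar genes are those with the highest smaller r over subtypes, for genes reaching 20 CPM; 1 of them is not reported here. Alternatives were other added CPM and floors, means of cells, thinning, leaving out the largest cell, chip rows, whole sorts and Vip cells only; leaving out shared barcodes or the deepest patch-seq cells was chosen after seeing the data.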

Additional observations from a re-analysis of the deposited data

How the results depend on the processing

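The recomputed counts were those of receptors past 2-fold and of receptors with the same highest class at both ages. Of these 98 counts, 73 were within 1.5 times the reported count and 25 were not, and no called fold changed sign. For NGCs against other INs the count of 5 at P15 was 3 with 100 CPM added and 0 between whole sorts, and the count of 3 at P30 was 5 in chip rows 21 to 40. For Dock5 against Lsp1 cells the count of 5 at P15 was 2 with 100 CPM added and 2 with a floor of 50 CPM. The count of 1 at P30 was 4 with 1 CPM added, 3 with means of single cells, 3 after thinning, 3 in chip rows 1 to 20 and 4 in rows 21 to 40, and the patch-seq count of 2 was 1 with 100 CPM added. For tdTOM- against tdTOM+ Lsp1 cells the count of 2 at P15 was 0 with 100 CPM added, 0 with a floor of 50 CPM, 1 with means of single cells and 0 without the largest cell. The count of 2 at P30 was 0 with 100 CPM added, 0 with the floor of 50 CPM, 1 without the largest cell and 4 in chip rows 21 to 40. For tdTOM+/GFP+ against FlashTag cells the count of 0 was 1 with 1 CPM added, 1 after thinning, 1 without the largest cell and 1 in chip rows 1 to 20. For POA against CGE the count of 1 was 2 with 1 CPM added and 0 with 100 CPM added. Larger added values shrink the folds of low genes by construction, and the cause of the other differences was not tested. Of 184 recomputed values of the 21 called folds, 150 stayed past 2-fold. Rxfp1 in Dock5 against Lsp1 cells stayed past it in 8 of 8 alternatives at P15 (log2 fold 1.49 to 3.26) and at P30 (1.33 to 3.11), and in 7 of 8 in patch-seq. Npy1r and Npy2r in NGCs against other INs stayed past it in 10 of 10 at P30 and 9 of 10 at P15, lost between whole sorts (-0.82 and -0.89). The calls of Vipr1 and Crhr1 were lost without their largest cell, and that of Sstr2 in Lsp1 cells held in 3 of 8 alternatives at P15 and 7 of 8 at P30. Without the shared barcodes the POA against CGE count was 1 and the Cnr1 log2 fold 1.13, and without the deepest patch-seq cells the count was 2, both chosen after seeing the data. No paired analysis was possible because every group is 1 sample and no test was run.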
